A study of Mus musculus with 6 samples.

Results

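The mucins Muc1, Muc2, Muc3, Muc4, Muc13 and Muc20 were followed through the cells of the small intestinal mucosa. These 6 genes were taken by symbol from the 32285 features of the count tables, and UMIs (unique molecular identifiers, 1 per captured RNA molecule) were summed per library over cells that passed marker gates for goblet cells, enterocytes, progenitors, tuft cells and, for comparison, enteroendocrine cells and T or NK cells. The genes were chosen by values of these same libraries, namely their levels in the classes and the label difference of Muc4, so that both are given below as descriptions without a test. Samples were 6 droplet-based single-cell libraries from C57BL/6 mice of 6 to 8 weeks, matched for age and gender. Of these, 3 came from control littermates (HuR fl/fl-Cre-), which carry the floxed alleles but no Cre, and 3 from IE-HuR-/- mice, in which Cre under the villin promoter deletes HuR in the intestinal epithelium. Villus-rich and crypt-rich fractions were pooled after EDTA and enzyme dissociation. The labels state normal feeding, whereas the methods state that food was withheld for 24 h.

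Mucins are heavily O-glycosylated proteins that cover the gut surface. Muc2 is the gel-forming mucin that goblet cells secrete and that builds the mucus layer, whereas Muc1, Muc3, Muc4, Muc13 and Muc20 span the membrane, and in enterocytes such mucins form the glycocalyx on the brush border. Muc4 is also known as a membrane partner of the receptor ErbB2. HuR, encoded by Elavl1, is an RNA-binding protein that binds U-rich and AU-rich elements, many of them in 3′ untranslated regions.

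The 6 libraries held 60706 barcodes and 428980031 UMIs, between 59518012 and 91818560 UMIs each. The gates gave 4595 goblet cells, 20235 enterocytes, 114 progenitors, 119 tuft cells, 193 enteroendocrine cells and 6732 T or NK cells, of which the progenitors numbered only between 8 and 33 per library and the tuft cells between 11 and 31. Another 7287 cells passed several gates and were set aside, mostly as goblet plus enterocyte. These were 9.14%, 22.6% and 14.9% of the cells in the control libraries and 6.81%, 4.63% and 6.97% in those labelled IE-HuR-/-. A further 19495 cells passed no gate, at 29.6%, 19.9% and 32.2% in the control libraries and 40.2%, 44.2% and 36.7% in the others. Neither share overlapped between the labels, and their part in the class comparisons was not tested. Any pair of libraries shared 22 to 44 barcodes. Elavl1 stood at 27.6, 30.1 and 27.7 CPM (UMIs per 1000000 UMIs of the class) in enterocytes of the control libraries and at 28.1, 27.3 and 28.7 CPM in those labelled IE-HuR-/-. The levels overlapped, so Elavl1 RNA was not lower in enterocytes under the label, and every direction below rests on the labels. In goblet cells it overlapped too (24.8 to 31.9 and 28.4 to 33.7 CPM). Progenitors had 31.8 to 82.2 and 101 to 128 CPM (35 and 93 UMIs). Enteroendocrine cells had 54.9 to 55.9 and 56.1 to 77.2 CPM (76 and 80 UMIs). In both classes Elavl1 was thus higher under the label without overlap. In enteroendocrine cells this held for 3.80% of the RNAs tested, and for progenitors that share was not computed. The paper reports that HuR protein staining was nearly lost from small intestinal epithelial cells of IE-HuR-/- mice. Which exons are floxed is not given in the sources used here, so these counts do not check the deletion.

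Positions of the 6 genes were read from GENCODE on GRCm38, where all 6 identifiers of the count tables were found. Muc4 (chr16:32735886-32782391, plus strand) overlaps Muc20 (chr16:32777419-32797435, minus strand) over 4973 bases at their 3′ ends, and Muc13 (chr16:33794037-33819934, plus strand) starts 996601 bases further along the same chromosome. Muc2 lies at chr7:141690340-141754693 on the plus strand, Muc3 at chr5:137134922-137149322 on the minus strand and Muc1 at chr3:89229057-89233381 on the plus strand. RefSeq promoters (GRCm38.p6, 250 bases before to 50 after the start, 5′ to 3′) are shown for Muc4 and Muc13, which differed between the labels, and for Muc2, which did not in its own cell class. Muc13 has 2 RefSeq starts, and the second is shown.
Muc4, chr16:32735636-32735935, plus strand: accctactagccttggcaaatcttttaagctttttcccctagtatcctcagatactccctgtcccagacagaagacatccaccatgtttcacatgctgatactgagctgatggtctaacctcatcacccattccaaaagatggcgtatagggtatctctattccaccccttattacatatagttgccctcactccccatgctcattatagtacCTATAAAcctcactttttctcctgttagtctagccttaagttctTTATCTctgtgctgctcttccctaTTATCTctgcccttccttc
Muc13, chr16:33794239-33794538, plus strand: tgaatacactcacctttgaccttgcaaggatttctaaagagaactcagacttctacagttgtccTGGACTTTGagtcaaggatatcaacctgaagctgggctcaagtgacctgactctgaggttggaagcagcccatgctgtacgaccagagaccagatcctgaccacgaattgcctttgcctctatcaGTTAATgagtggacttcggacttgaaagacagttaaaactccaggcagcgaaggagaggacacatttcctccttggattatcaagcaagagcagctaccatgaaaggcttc
Muc2, chr7:141690090-141690389, plus strand: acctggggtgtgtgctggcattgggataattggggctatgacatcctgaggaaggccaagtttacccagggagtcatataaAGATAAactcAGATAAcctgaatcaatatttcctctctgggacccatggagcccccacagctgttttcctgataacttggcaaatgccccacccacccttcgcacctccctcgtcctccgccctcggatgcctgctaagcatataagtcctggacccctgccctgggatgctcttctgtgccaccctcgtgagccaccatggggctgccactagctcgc

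Capitals mark letters of 6 motifs of intestinal transcription factors, searched on both strands. Muc4 held the CDX2 motif TTTATNG on the minus strand 37 bases before the start, where its letters also spell the TATAAA of a TATA box, and the GATA motif AGATAA on the minus strand 7 and 31 bases after it. Of 32851 promoters of this length, 10.9% held the CDX2 motif and 11.2% the GATA motif. Muc2 held AGATAA on the plus strand 169 and 159 bases before its start. The second Muc13 start had the HNF1 motif GTTAAT (7.10% of promoters) 61 bases before it and the HNF4 motif CAAAGTCCA (0.475%) on the minus strand 186 bases before it. The first Muc13 start had neither, and held the STAT motif TTCNNNGAA (8.30%), which reads the same on both strands, 140 bases before it and the E-box CAGATG of Atoh1 (17.2%) on the minus strand 44 bases before it. A match describes the letters of these windows only.

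The AU-rich pentamer ATTTA was counted in the 3′ untranslated regions, since it is a core of elements that HuR binds. Muc4 had 2 copies in 370 bases, and the one 298 bases into the region is printed with its flanks, the pentamer in capitals.
Muc4: ctggctttacATTTAccaagatgtt
Muc2 had 1 copy in 156 bases.
Muc2: ctctgcacatATTTAttttcggagt
Muc13, with 1060 bases, Muc3, with 522 bases, and Muc1, with 283 bases, had none, and Muc20 had 2 copies in 1563 bases. Of 21010 genes with such a region, 61.8% held the pentamer at any length. Per 1000 bases, Muc4 had 5.41 copies and Muc20 had 1.28, against a median of 1.57 among genes with at least 300 bases of this region. Muc2 had 6.41 from its single copy, but with 156 bases it lies outside that set and cannot be compared with its median. The Muc2 copy lies in the longer motif TATTTAT, held by 25.5% of genes.

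Muc2 marked the goblet class although it was not among the gate's 6 markers. It reached 27232, 26562 and 21666 CPM in goblet cells of the control libraries and 24408, 28640 and 24834 CPM in those labelled IE-HuR-/-. The libraries of both labels overlapped, with means of 25154 ± 3039 and 25961 ± 2330 CPM (SD, n = 3 libraries each). The log2 ratio was 0.05 (standard error 0.128), but it was -0.29 when each cell counted equally and 0.31 when cells of several gates were kept, so no direction can be given.

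Goblet sums were set by few deep cells. Cells with at least 5000 UMIs held between 69.3% and 77.3% of the UMIs of the class, whereas the median goblet cell had between 641 and 1252 UMIs. Cells just inside the gate carried 489 to 833 CPM of Muc2 and cells just outside it 485 to 662 CPM, so the edge of the class was not sharp. In cells thinned to 2000 UMIs, 90.3% to 93.1% of goblet cells of the control libraries had a Muc2 UMI and 92.9% to 96.9% of those labelled IE-HuR-/- (without thinning, where shallow cells also count, 60.8% to 75.8% and 56.2% to 63.4%). T or NK cells, which should lack Muc2, had one in 24.6% to 39.8% of thinned cells, or 47.3% to 62.7% without thinning, at median depths of 4092 to 5313 UMIs.

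In enterocytes, tuft cells, progenitors and enteroendocrine cells, Muc2 lay below the T or NK cells of the same library. Cells that passed no gate, at 247 to 303 CPM, lay above the T or NK cells in each library. The level of free RNA itself was not measured. Enterocytes had 78.8, 138 and 65.4 CPM in the control libraries and 69.5, 56.8 and 71.5 CPM in the others, below the T or NK cells of the same library in all 6 libraries (142 to 253 CPM). Tuft cells had 52.2, 102 and 77.9 CPM of Muc2 in the control libraries and 30.2, 27.3 and 31.4 CPM in those labelled IE-HuR-/-. These levels did not overlap, as was the case, with lower levels under the label, for 5.71% of the RNAs tested in tuft cells, but all were below the T or NK cells and rested on 103 UMIs.

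Muc3, a membrane mucin of the brush border, was highest in enterocytes in all 6 libraries. It stood at 1622, 1560 and 1642 CPM in the control libraries and at 1537, 1579 and 1439 CPM in those labelled IE-HuR-/-. The labels overlapped and the sign of the difference depended on the scaling, with a log2 ratio of -0.08 (standard error 0.0454) on CPM and 0.10 after TMM scaling, which sets the trimmed mean of log ratios between libraries to 0. Without TMM the median of all RNAs tested in enterocytes was itself at -0.21 on the log2 scale, and with it at -0.03. The share of enterocytes with a Muc3 UMI at 1 depth did not overlap, unlike the CPM. For how many RNAs such a share separates the labels was not computed. In cells thinned to 2000 UMIs it was 82.6% to 84.3% in the control libraries and 73.0% to 75.7% in those labelled IE-HuR-/-, and in cells thinned to 1000 UMIs 62.4% to 65.7% and 57.8% to 59.2%. Without thinning the shares were 78.7% to 82.1% and 80.4% to 82.2%, which overlapped, and T or NK cells had 23.5% to 43.2% at 2000 UMIs.

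Goblet cells held Muc3 at 574, 715 and 683 CPM in the control libraries and 517, 578 and 611 CPM in the others, above T or NK cells in each library. The UMIs of the 11 enterocyte markers served as a measure of enterocyte RNA in any class. This assumes that free RNA from 1 source keeps its genes in 1 ratio. For Muc2 and the goblet gate markers that ratio was not kept. In control replicate 1, Muc2 and those markers stood at 27232 and 249951 CPM in goblet cells. In T or NK cells they stood at 188 and 1044 CPM. Per 1000 UMIs of the enterocyte markers, enterocytes carried 69.2 to 76.9 UMIs of Muc3 and T or NK cells 73.3 to 85.7. Goblet cells had 126 to 180 Muc3 UMIs per 1000, above that ratio in every library. However, cells that passed the enterocyte gate too were set aside, so goblet cells were selected for few enterocyte markers. How much this raised their ratio was not tested. Cells of several gates, mostly goblet plus enterocyte, had 72.9 to 90.8. Tuft cells (31.9 to 117 per 1000), progenitors (29.6 to 109) and enteroendocrine cells (36.7 to 99.4) lay around the enterocyte ratio.

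A second feature, Muc3a, has a similar name and lies 59490 bases from Muc3. Its pattern was different, with 237 to 263 CPM in goblet cells of the control libraries and 233 to 280 CPM in those labelled IE-HuR-/-, 76.8 to 101 CPM in enteroendocrine cells and 2.69 to 4.17 CPM in enterocytes. Whether some reads fit both features, and how the counting treated such reads, was not examined.

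Muc13, a membrane mucin of the apical surface, was found in more classes than Muc3. Enterocytes were highest in all 6 libraries, followed by goblet, tuft and enteroendocrine cells in this order in each. In enterocytes it stood at 1776, 1734 and 1787 CPM in the control libraries and at 2759, 2794 and 2684 CPM in those labelled IE-HuR-/-. Every library labelled IE-HuR-/- was above every control library, at means of 1765 ± 28.1 and 2746 ± 56.2 CPM (SD, n = 3 each), a log2 ratio of 0.64 (standard error 0.0217), or 0.82 after TMM scaling. Non-overlapping levels, higher under the label, were found for 16.3% of the RNAs tested in enterocytes.

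In goblet cells Muc13 stood at 1485, 1601 and 1455 CPM in the control libraries and at 1914, 2071 and 2076 CPM in those labelled IE-HuR-/-. The libraries were again separated, as were 10.3% of the RNAs tested in goblet cells in the same direction. The log2 ratio was 0.42 (standard error 0.0570). It was 0.29 when each cell counted equally and 0.56 when cells of several gates were kept. Per 1000 enterocyte marker UMIs, goblet cells had 277 to 326 UMIs of Muc13 in the control libraries and 482 to 646 in the others, against 79.6 to 83.7 and 129 to 133 in enterocytes. The ratio in goblet sums was thus above that in enterocytes in every library. Goblet cells that also passed the enterocyte gate were set aside, so the class was selected for few enterocyte markers. Cells of several gates had 96.5 to 103 in the control libraries and 157 to 165 in the others. How much Muc13 in goblet sums came from enterocyte RNA was not tested.

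Tuft cells had Muc13 at 1044, 1102 and 1070 CPM in the control libraries and at 1153, 1085 and 1257 CPM in those labelled IE-HuR-/-. Here the labels overlapped, with a log2 ratio of 0.12 (standard error 0.0657). Enteroendocrine cells had 612, 636 and 706 CPM against 906, 774 and 1139 CPM, without overlap, as for 3.80% of the RNAs tested in that class with higher levels under the label. Whether the difference in enterocytes is larger than in tuft cells was not tested. Progenitors had between 127 and 382 CPM, above the T or NK cells of the same library (139 to 292 CPM over all libraries) in 3 of 6 libraries. Per 1000 enterocyte marker UMIs they had 357, 80.0 and 126 UMIs of Muc13 in the control libraries and 179, 207 and 217 in the others. By this measure they lay above the enterocytes of the same library in every library but control replicate 2, and T or NK cells had 71.9 to 76.6 and 118 to 126. Progenitor sums held 17 to 128 Muc13 UMIs per library, and the 2 measures do not settle alike whether this RNA exceeds the free RNA.

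**Figure D1:**
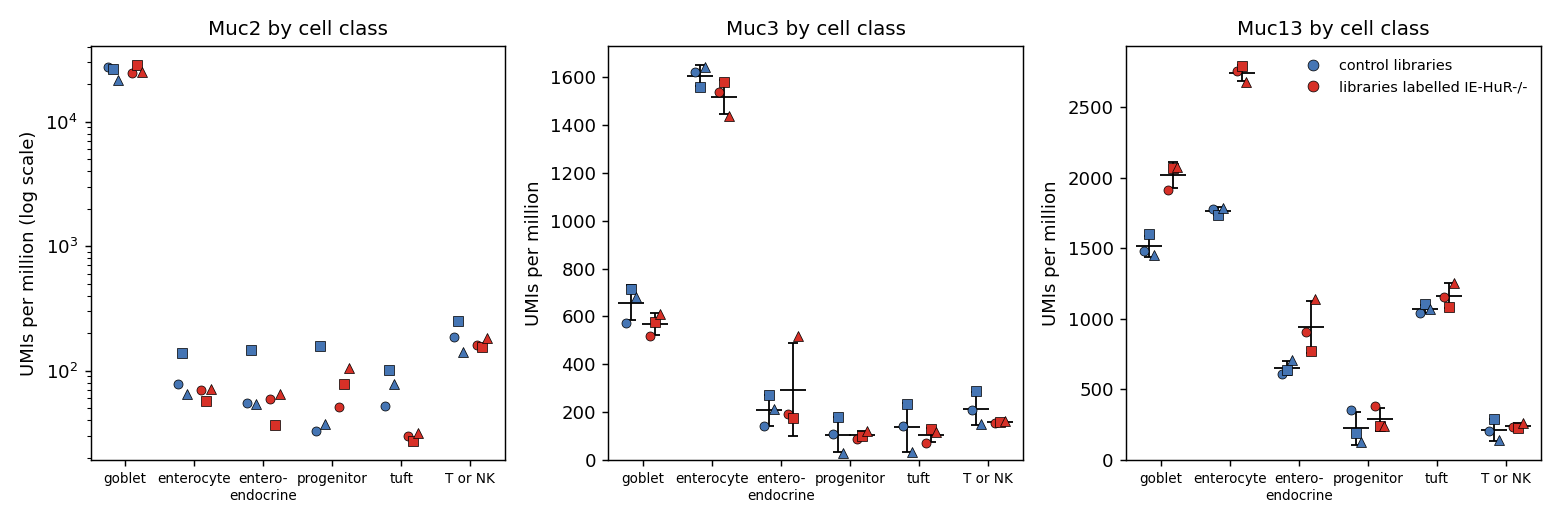
Levels of Muc2 (log axis), Muc3 and Muc13 in CPM, 1 point per library (circle, square and triangle for replicates 1, 2 and 3), with mean and SD of 3 libraries as bars for Muc3 and Muc13. Muc2 stands between 21666 and 28640 CPM in goblet cells and at most at 253 CPM in the other classes, and Muc13 of enterocytes is between 1734 and 1787 in the control libraries and between 2684 and 2794 in those labelled IE-HuR-/-.

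Muc4 had fewer UMIs than the mucins above and the widest difference between the labels among the 4 members with more than 1000 UMIs in all. In enterocytes it stood at 4.26, 4.30 and 3.42 CPM in the control libraries and at 54.0, 53.0 and 50.9 CPM in those labelled IE-HuR-/-. The means were 3.99 ± 0.499 and 52.6 ± 1.60 CPM (SD, n = 3 each) from 613 and 6033 UMIs, a 13.2-fold difference (log2 ratio 3.72, standard error 0.111). The 95% Poisson intervals, which cover counting error only, reached 4.87 CPM at most in a control library and 48.7 CPM at least in the others.

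In goblet cells Muc4 stood at 12.50, 14.97 and 14.29 CPM in the control libraries and at 120, 169 and 152 CPM in those labelled IE-HuR-/-. The means were 13.9 ± 1.27 and 147 ± 25.02 CPM (SD, n = 3 each), 10.6-fold apart (log2 ratio 3.40, standard error 0.166), on 108 and 1065 UMIs. Goblet cells were above enterocytes in all 6 libraries. Both differences belong to the values that chose the gene.

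Enteroendocrine cells held Muc4 under both labels. They had 101, 95.4 and 76.4 CPM in the control libraries and 125, 141 and 103 CPM in those labelled IE-HuR-/-, from 278 UMIs in all. The labels did not overlap, as for 3.80% of the RNAs tested in that class with higher levels under the label. However, the highest control library and the lowest of the others were 101 and 103 CPM, and the Poisson interval of the first ran from 73.9 to 135 CPM. The log2 ratio was 0.43 (standard error 0.180), or 0.32 to 0.54 with 1 library left out. Among the 6 classes compared, enteroendocrine cells had the highest Muc4 level in every control library and in IE-HuR-/- replicate 1, and goblet cells in the other 2 libraries.

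Progenitors had 38.3, 10.6 and 37.3 CPM of Muc4 in the control libraries and 47.3, 46.1 and 32.3 CPM in those labelled IE-HuR-/-, from 1 to 14 UMIs per library, and the labels overlapped. In tuft cells, 3 libraries had no Muc4 UMI, which allows up to 7.62, 15.6 and 8.20 CPM, and the other 3 had 2 UMIs each. At this depth no difference could be seen in either class.

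**Figure D2:**
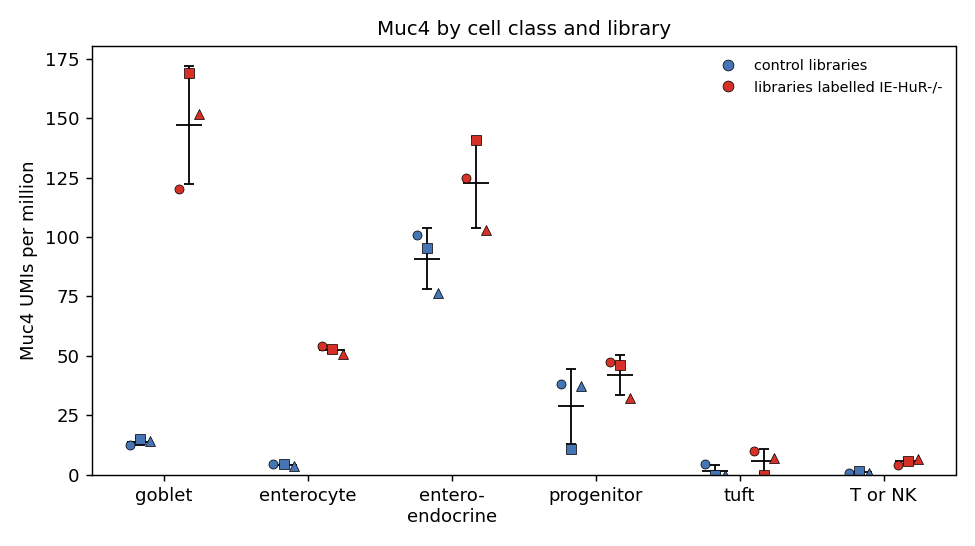
Muc4 in CPM by class, 1 point per library (circle, square and triangle for replicates 1, 2 and 3), with mean and SD of 3 libraries. Enterocytes and goblet cells are far apart between the labels, at 3.99 against 52.6 and 13.9 against 147 CPM, whereas enteroendocrine cells lie between 76.4 and 141 CPM over both.

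The same comparison with T or NK cells was made for Muc4. These cells had 0.787, 1.68 and 0.788 CPM in the control libraries and 4.22, 5.89 and 6.57 CPM in those labelled IE-HuR-/-. Muc4 in T or NK cells was thus also higher under the label, on 16 and 101 UMIs. The share of RNAs separated in this way was not computed for T or NK cells. Per 1000 enterocyte marker UMIs, T or NK cells labelled IE-HuR-/- carried 2.15 to 3.17 UMIs of Muc4 and enterocytes 2.44 to 2.60. In the control libraries T or NK cells carried 0.275 to 0.441, from 16 UMIs in all, and enterocytes 0.160 to 0.207, so there the T or NK ratio was above the enterocyte ratio in each library. Goblet cells had 30.2 to 52.8 per 1000 under the label and 2.72 to 3.03 in the control libraries. Cells of several gates, mostly goblet plus enterocyte, had 3.56 to 5.04 and 0.573 to 0.977. Enteroendocrine cells had 16.4 to 26.4 in the control libraries and 19.7 to 35.4 in the others. Muc4 of goblet and enteroendocrine cells was thus above the ratio in enterocytes and in T or NK cells in every library. The same held for progenitors, at 4.44 to 39.0 in the control libraries and 22.2 to 39.6 in the others, but on only 1 to 14 UMIs per library. Goblet and enteroendocrine cells that also passed the enterocyte gate were set aside, so both classes were selected for few enterocyte markers. How much this raised their ratios was not tested.

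**Figure D3:**
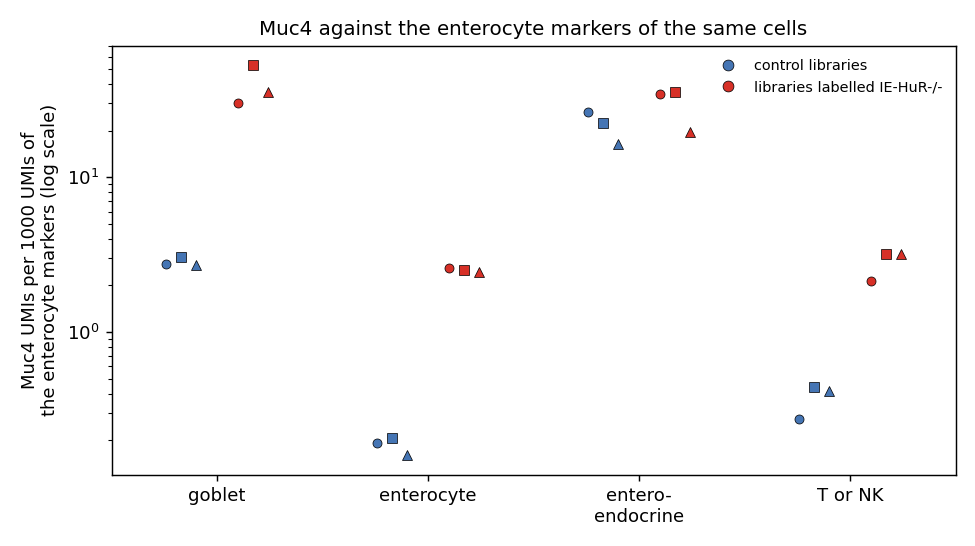
Muc4 UMIs per 1000 UMIs of the 11 enterocyte gate markers in the same cells (log axis), 1 point per library, for 4 classes. T or NK cells labelled IE-HuR-/- lie at 2.15 to 3.17, around enterocytes at 2.44 to 2.60, while goblet cells lie at 30.2 to 52.8, and in the control libraries T or NK cells lie at 0.275 to 0.441, above enterocytes at 0.160 to 0.207.

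The share of cells with a Muc4 UMI was compared at 1 depth, after each cell was thinned to 2000 UMIs and shallower cells were left out. In enterocytes it was 0.569% to 0.794% in the control libraries and 8.62% to 9.91% in those labelled IE-HuR-/-, over 7266 and 4800 cells (5681 and 2488 left out). Without thinning the shares were 2.96% to 3.50% and 29.4% to 30.2%. Goblet cells had 0.922% to 5.08% and 17.3% to 22.4% over 495 and 354 cells (1910 and 1836 left out), and without thinning 1.86% to 3.99% and 10.9% to 13.7%. Enteroendocrine cells had 15.8% to 23.3% and 20.8% to 22.2%, which overlapped, and 37.8% to 48.6% and 62.5% to 65.5% without thinning, which did not. T or NK cells had at most 0.154% and 0.762% to 1.31% after thinning, and 0.388% to 0.725% and 1.68% to 3.16% without it. Enterocyte and goblet shares were above the T or NK share of the same label. For how many RNAs such shares separate the labels was not computed.

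**Figure D4:**
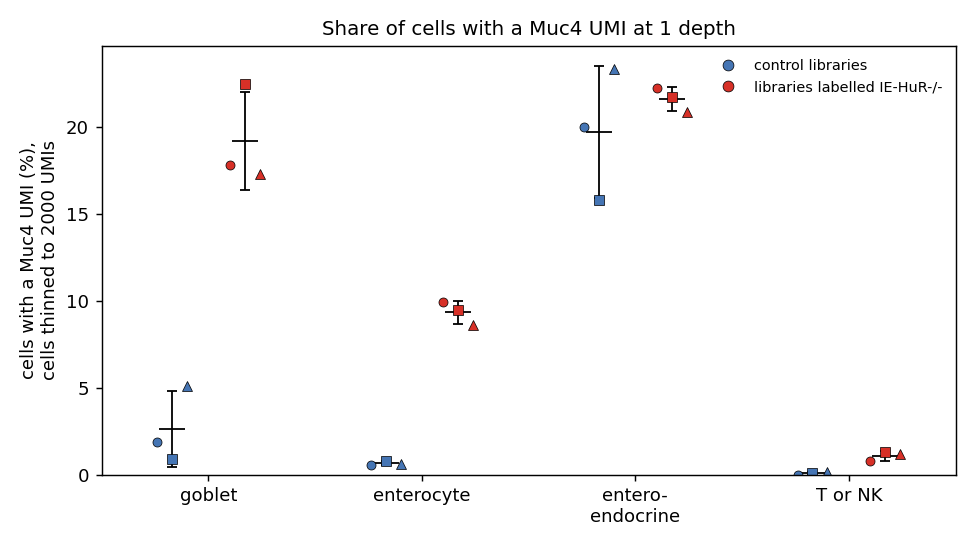
Percent of cells with at least 1 Muc4 UMI after each cell was thinned to 2000 UMIs, 1 point per library, with mean and SD of 3 libraries. Enterocytes lie between 0.569% and 0.794% in the control libraries and between 8.62% and 9.91% in the others, and enteroendocrine cells lie between 15.8% and 23.3% under both.

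Along the villus, enterocytes with at least 2 of the tip RNAs Ada, Nt5e and Slc28a2 were set against those with none. Muc3 was 2.00 to 2.10 times higher in tip than in other enterocytes in the control libraries and 1.80 to 2.74 times in those labelled IE-HuR-/-, and Muc13 was 1.41 to 1.45 and 1.32 to 1.58 times higher. Muc4 gave ratios of 0.860 to 1.54 in the control libraries, where only 11 to 13 UMIs fell in the lower cells, and 1.58 to 2.45 in the others. Muc4 was separated by label in both zones, at 4.08 to 4.98 against 57.4 to 61.0 CPM in tip cells and 3.24 to 5.27 against 23.4 to 38.5 CPM in lower cells. The share of RNAs separated in this way was not computed for either zone. Muc2 went the other way, with ratios of 0.370 to 0.487 in the control libraries and 0.371 to 0.456 in the others. Lower cells were shallow, with medians of 966 to 1295 UMIs against 8644 to 18409 in tip cells. The part of depth or of free RNA in these ratios was not tested.

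Muc1 and Muc20 were close to absent. Muc1 had 57 UMIs in all cells, of which 42 were in T or NK cells (0.393 to 1.58 CPM in the control libraries and 1.09 to 2.23 CPM in the others) and 4 in tuft cells. No goblet or enteroendocrine cell had a Muc1 UMI. Muc20 had 26 UMIs, of which 13 were in T or NK cells and 6 in enterocytes. Of the other Muc features, Muc3a had 8156 UMIs, Muc16 had 567, Muc6 had 30, Muc5ac, Muc5b and Muc19 had 1 each, and Muc15 had 0.

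The RNAs most alike in pattern were ranked by Pearson's correlation of log2(CPM + 1) over 36 points (6 classes in 6 libraries) among 11280 RNAs, as a description, since points of 1 library share its free RNA. Muc2 was closest to Zg16 (0.995), Clca1 (0.983), Fer1l6 (0.964), Fcgbp (0.959) and Ido1 (0.959), of which Zg16, Clca1 and Fcgbp were gate markers. Muc13 was closest to Gpa33 (0.964), Dsg2 (0.953), Fam3b (0.950), Myo15b (0.946) and Cdh1 (0.944). Muc4 had looser neighbours, namely Carhsp1 (0.848), Tc2n (0.830), Hk2 (0.816), Tagln2 (0.797) and Fsd1l (0.793). Cdh1 encodes E-cadherin and Dsg2 a desmosomal cadherin. Muc4 and Muc13 correlated at 0.217 only, and Muc3 and Muc13 at 0.680.

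Genes that make, cut or accompany mucins were then compared between the labels with edgeR's quasi-likelihood test on class sums, with Benjamini-Hochberg adjusted p over all RNAs of the class and 0.05 as threshold. Of all RNAs tested, 59.2% were called in enterocytes (28.2% higher under the label) and 11.4% in goblet cells (6.35% higher), against 0.587% in progenitors and 0.161% in tuft cells. Each list count below is to be read against these shares. Few genes of the 5 lists could be tested in the small classes. In progenitors these were 3 of 20 of the secretory programme, 2 of 36 for O-glycosylation, 4 of 11 for cleavage, 14 of 16 for the brush border and galectins and 1 of 14 for ErbB, and in tuft cells 2, 15, 5, 15 and 2. Of those tested, 0 were called in either class, where without adjustment 421 and 307 RNAs had p under 0.05 and where DESeq2 called 25 and 6 RNAs. Muc2, Muc3, Muc4 and Muc13 passed the filter on low counts in goblet cells, enterocytes and progenitors, Muc4 did not in tuft cells, and Muc1 and Muc20 passed in none. Since the label contrast chose the members, they have no p. The lists were also chosen with earlier results of these data known, so the adjusted p of their RNAs are not an independent test.

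The goblet secretory programme outside the gate showed 2 higher and 1 lower of 19 RNAs tested in goblet cells, with a median log2 fold change of 0.08, against -0.02 over all RNAs tested. Klk1, a kallikrein protease, rose from 341 ± 20.4 to 561 ± 79.6 CPM (log2 fold change 0.80, standard error 0.128, adjusted p = 3.48e-04). Bcas1 rose by 0.43 (adjusted p = 0.0321). Ramp1, a receptor partner of the peptide CGRP, fell by 0.54, a call lost without IE-HuR-/- replicate 3 and with doubled gate shares. The number higher was only 1 without TMM scaling, with the replicate number as a block and without any 1 library other than IE-HuR-/- replicate 1. The goblet cell regulators Atoh1 (226 ± 32.4 and 215 ± 30.2 CPM, adjusted p = 0.989) and Spdef (75.2 ± 6.32 and 82.7 ± 5.32 CPM, adjusted p = 0.301) were not called. In enterocytes 2 were higher (Vamp8 and Sec24d, each by 0.23) and 2 lower (Nlrp6 among them, by 0.28) of 18, but without TMM scaling 0 were higher and 5 lower.

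Mucin-type O-glycosylation, the addition of sugar chains from GalNAc onward, had 16 higher and 5 lower RNAs of 28 tested in enterocytes, a median of 0.20 against -0.03 over all RNAs, and 12 higher and 8 lower without TMM scaling. The GalNAc transferases Galnt2, Galnt3 and Galnt10, which start the chains, rose by 0.46, 0.61 and 0.45 on the log2 scale. Other members of this family were called lower, outside the rule for named RNAs. These were Galnt5 (log2 fold change -1.70, from a control mean of only 0.293 CPM), Galnt7 (-0.15) and Galnt11 (-0.65). The other lower RNAs were St3gal6 (-0.44) and Fut4 (-0.92). The galactosyltransferase B4galt1 rose from 102 ± 1.93 to 136 ± 1.81 CPM (log2 fold change 0.59, standard error 0.0439, adjusted p = 1.76e-17), and the core-branching enzyme Gcnt3 by 0.64. Below the level set for named RNAs, and singled out after their values were seen, Gcnt1 went from 1.18 ± 0.238 to 16.2 ± 1.57 CPM (log2 fold change 3.94, standard error 0.103, adjusted p = 6.82e-31) and the fucosyltransferase Fut2 from 0.510 ± 0.112 to 6.57 ± 0.469 CPM (log2 fold change 3.83, standard error 0.145, adjusted p = 5.03e-30). T or NK cells held Gcnt1 at 56.8 to 68.9 CPM and Fut2 at up to 0.938 CPM.

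In goblet cells 4 RNAs of this list were higher and 2 lower of 25, with a median of 0.16. C1galt1, which builds core 1, rose from 119 ± 9.85 to 160 ± 5.72 CPM (log2 fold change 0.51, standard error 0.121, adjusted p = 0.00938), B3gnt3 by 0.39 and the sialyltransferase St3gal1 by 0.77, whereas St3gal6 fell by 0.89 and the fucosyltransferase Fut4 by 1.08. The number higher was between 1 and 6 with 1 library left out, lowest without IE-HuR-/- replicate 3, was 0 in cells of at least 5000 UMIs and 14 when cells of several gates were kept.

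Of the proteases and sheddases that can cut membrane mucins, 5 were higher and 1 lower of 11 in enterocytes, with a median of 0.15. Over all RNAs tested there, 59.2% were called in either direction and 28.2% higher. Calls of this list in either direction were thus not more frequent than among all RNAs. Mep1b, a subunit of the brush border enzyme meprin, rose from 768 ± 15.7 to 1076 ± 5.62 CPM (log2 fold change 0.67, standard error 0.0451, adjusted p = 4.65e-19), and the sheddase Adam10 by 0.35, while Mmp15 fell by 0.60. Mep1a and St14 were called higher at 0.15 and 0.11, but their CPM ratios without TMM were -0.03 and -0.07. Without TMM scaling 3 RNAs of the list were higher and 3 lower. In goblet cells 1 of 11 was called, against 11.4% of all RNAs tested there. This was the membrane-anchored protease Prss8, which rose from 25.1 ± 2.49 to 43.2 ± 2.89 CPM (log2 fold change 0.86, standard error 0.151, adjusted p = 7.72e-04). Prss8 was also called higher in enterocytes, below the level set for named RNAs. There it went from 7.64 ± 0.832 to 16.5 ± 0.131 CPM (log2 fold change 1.31, standard error 0.0707, adjusted p = 1.36e-22).

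Brush border and galectin genes, whose products sit beside the membrane mucins, had 13 higher and 0 lower of 16 in enterocytes, with a median of 0.35, and 11 higher and 3 lower without TMM scaling. The actin bundlers Vil1 (1590 ± 58.1 to 2071 ± 14.1 CPM) and Espn rose by 0.56 and 0.53, the membrane linker Ezr by 0.53, and the glycan-binding galectins Lgals4 and Lgals2 by 0.57 and 0.85. The promoter of Vil1 is the one named for the Cre transgene. In goblet cells 5 were higher and 1 lower of 16. There Lgals4 rose from 3267 ± 224 to 4949 ± 125 CPM (log2 fold change 0.68, standard error 0.109, adjusted p = 3.59e-04), Lgals2 and Lgals3 each by 0.56 and Espn by 0.43, while Pdzk1, a scaffold of apical transporters, fell by 0.49. This only lower call of the list was lost without control replicate 2, control replicate 3 or IE-HuR-/- replicate 2, with thinned sums, in cells of at least 5000 UMIs and with DESeq2, each of which left 0 lower. The enterocyte markers in goblet sums were 4551 to 5258 CPM in the control libraries and 3205 to 4264 CPM in the others, and their part in these goblet calls was not tested.

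ErbB2, the partner of Muc4, had no call in either class after TMM scaling. Erbb2 stood at 55.3, 54.4 and 56.0 CPM in enterocytes of the control libraries and at 51.2, 49.6 and 50.3 CPM in the others. These CPM did not overlap and were lower under the label. The share of RNAs separated in that direction was not computed for enterocytes. Its log2 fold change was 0.05 after TMM scaling (standard error 0.0469, adjusted p = 0.394) and -0.13 without it. Among ErbB receptors and ligands, 5 were higher and 3 lower of 10 in enterocytes. Egfr, the receptor of EGF, rose from 27.0 ± 2.24 to 55.6 ± 3.40 CPM (log2 fold change 1.22, standard error 0.0578, adjusted p = 3.73e-17), the ligands Areg and Hbegf by 0.73 and 0.30, Erbb3 by 0.24 and the feedback inhibitor Errfi1 by 0.66. The 3 lower RNAs, all below the level set for named RNAs, were the ligands Nrg4, Ereg and Btc. Their log2 fold changes were -1.76, -0.59 and -0.44, from control means of 3.14, 6.67 and 4.22 CPM. In goblet cells 2 were higher and 1 lower of 8, with Areg up by 1.19 and Egfr by 0.55 and the ligand Btc down from 42.4 ± 3.48 to 26.6 ± 3.08 CPM (log2 fold change -0.58, standard error 0.148, adjusted p = 0.0137). The Btc call was lost, leaving 0 lower, without control replicate 1 or IE-HuR-/- replicate 3, with doubled gate shares and with DESeq2. Without TMM scaling the numbers were 4 and 4 in enterocytes and again 2 and 1 in goblet cells. With 1 library left out, the goblet numbers higher were 1 to 2 for this list, 1 to 2 for the secretory programme and 3 to 6 for the brush border and galectin list, which had 3 without any 1 control library or without IE-HuR-/- replicate 3 and 2 in cells of at least 5000 UMIs. Without TMM scaling that list had 3 higher and 2 lower in goblet cells.

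**Figure D5:**
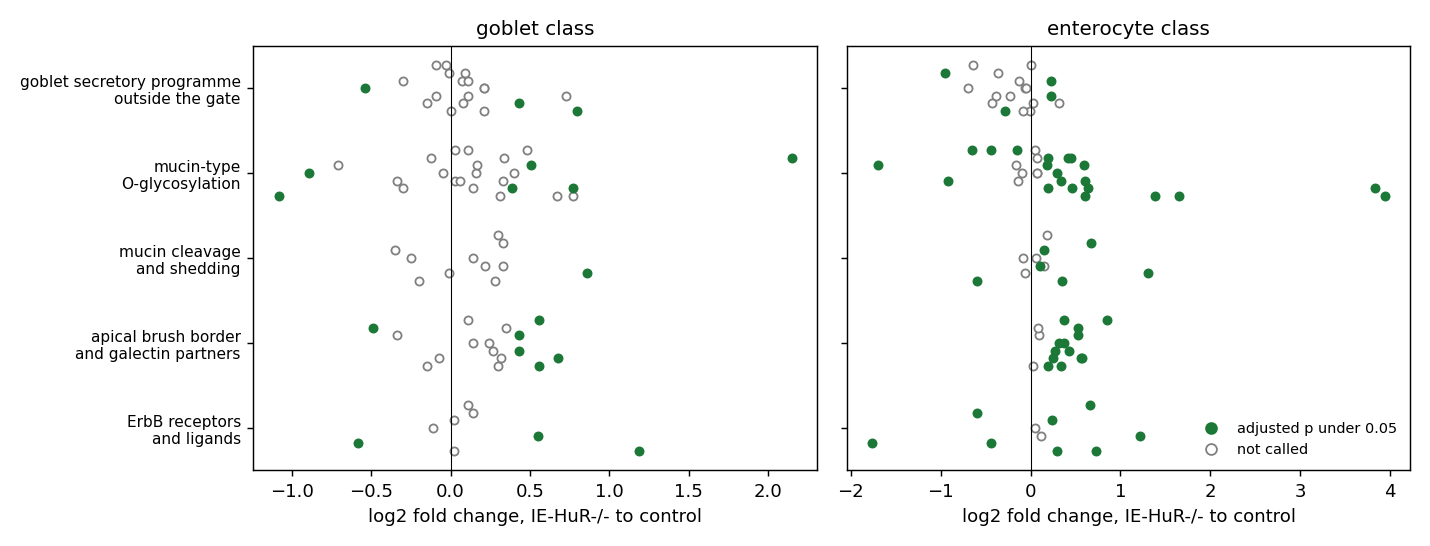
Log2 fold changes (libraries labelled IE-HuR-/- to control libraries, edgeR after TMM scaling) of the RNAs of 5 lists in goblet cells and enterocytes, 1 point per RNA, filled where the adjusted p was under 0.05. Of the brush border and galectin RNAs in enterocytes, 13 of 16 are filled and lie to the right of 0.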

How the data were processed

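Counts of UMIs for each feature in each barcode were deposited by the authors for 6 libraries, unnormalized and limited to barcodes with 500 UMIs or more. The file headers name cellranger 6.1.2 and the submitters' processing notes Cell Ranger, Seurat and mm10. The features are mouse genes and the labels give a 5′ kit, although the methods describe a 3′ kit and a human genome. All values were computed from these counts.

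Cells with at least 200 genes were gated by marker UMIs. Goblet cells, for example, needed 3 of 6 markers (Tff3, Fcgbp, Clca1, Zg16, Spink4, Agr2), 5 marker UMIs and 0.5% of the cell's UMIs. Cells passing several gates were set aside, except that enterocyte with progenitor went to the gate exceeded more. No doublet caller was run. The members and lists were chosen with earlier results of these data known. Gene lists were tested on class sums with edgeR 4.0.16 (TMM, filterByExpr with minimum count 10 and total 15, quasi-likelihood) in R 4.3.3, and called RNAs of at least 20 CPM under 1 label were named, at most 5 per list and class by size of change. The step was also run on simulated counts with 1 common spread per class and few changed RNAs. Such counts cannot check the enterocyte calls, where 59.2% of the RNAs tested were called. Alternatives were DESeq2 1.42.0, no TMM, no filter, other cell filters and gates, thinned sums, the replicate number as a block and each library left out. Class sums ranged from 83340 UMIs (progenitors) to 58328615 UMIs (enterocytes) after the filter, which limits precision most in progenitors and tuft cells. Each library is 1 sample of its label, and p-values measure the spread between these samples. UMI counts of 5′ tags were not scaled by length, so levels were compared between classes and labels and not between genes.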

Additional observations from a re-analysis of the deposited data

Results flagged for a closer look

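Muc4 UMIs were also found in cells that entered no comparison. Cells that passed several gates, mostly goblet plus enterocyte, had 15.97, 9.43 and 16.02 CPM in the control libraries and 54.6, 61.1 and 73.1 CPM in those labelled IE-HuR-/-, a mean of 62.9 CPM under that label. Cells that passed no gate had 3.58, 3.60 and 5.16 CPM in the control libraries and 21.6, 17.6 and 21.0 CPM in the others, a mean of 20.1 CPM. In both sets the libraries labelled IE-HuR-/- lay above all control libraries, but the share of all RNAs separated in this way was not computed there. Per 1000 enterocyte marker UMIs under the label, cells of several gates had 3.56 to 5.04 UMIs of Muc4. Cells without a gate had 3.55 to 4.25 and T or NK cells 2.15 to 3.17. How much of this Muc4 was free RNA was not tested.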

How the results depend on the processing

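The log2 ratio of Muc4 between the labels stayed above 0 under all 16 alternatives in enterocytes (3.45 to 3.90, main value 3.72) and in goblet cells (2.86 to 3.59, main value 3.40). It moved by more than the spread between libraries in enterocytes after TMM scaling (3.90), as a mean over cells (3.45), with cells of several gates kept (3.50) and without high-UMI cells (3.90), and in goblet cells with cells of several gates kept (2.86). With 1 library left out it was 3.62 to 3.78 and 3.29 to 3.53. The same ratio of the share of enterocytes with a Muc4 UMI was 3.18 without thinning against 3.84 at 2000 UMIs. Muc2 in goblet cells was above 0 in 13 and below 0 in 3 of 16 alternatives, and Muc3 in enterocytes below 0 in 15 of 16, the exception being TMM scaling. Muc13 stayed above 0 in all 16, at 0.62 to 0.82 in enterocytes and 0.29 to 0.56 in goblet cells. In goblet cells 4 of these moved by more than the spread between libraries.

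RNAs called in goblet cells numbered 959, and 579 with a stricter cell filter (500 genes, 25% mitochondrial UMIs), 1604 with doubled gate shares, 2363 with cells of several gates kept, 1464 without high-UMI cells, 601 with DESeq2, 411 in cells of at least 5000 UMIs (an alternative added after the data were seen) and 611 (without IE-HuR-/- replicate 3) to 945 with 1 library left out, 632 without control replicate 2. In progenitors the number was 22, and 143 with no filter on low counts, 9 with doubled gate shares, 177 with cells of several gates kept, 6 without high-UMI cells and 14 (without control replicate 3) to 42 (without IE-HuR-/- replicate 2, 35 without replicate 1) with 1 library left out. In tuft cells it was 7, and 94 with no filter, 4 with the stricter cell filter, 67 with doubled gate shares, 53 with cells of several gates kept, 2 with thinned sums and 1 (without IE-HuR-/- replicate 2, 3 without replicate 3) to 100 (without control replicate 3) with 1 library left out. Enterocyte calls stayed between 6221 and 8050, but no TMM scaling turned 3476 higher and 3806 lower into 1863 and 6187, and goblet calls from 536 and 423 into 369 and 543. The causes of these moves were not tested.

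With the replicate number as a block, the calls were 744 in goblet cells, 7260 in enterocytes, 28 in progenitors and 0 in tuft cells (268 at an unadjusted p under 0.05), and the Muc4 ratios were 3.73 and 3.39. Libraries of the same number correlated between -0.17 and 0.10 in their deviations from the group means. With 3 libraries per group, these correlations cannot decide whether such libraries share more than a number.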
